A study of Mus musculus with 14 samples.

Results

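Expression of 9 transcription factors that act in keratinocyte differentiation was followed in mouse epidermis with and without G9a. The factors were the zinc finger repressors Ovol1 and Ovol2, the grainyhead-like activators Grhl1 and Grhl3, the Krüppel-like factor Klf4, the C/EBP factors Cebpa and Cebpb, the repressor Prdm1 (also called Blimp1) and Trp63, which encodes p63. They were chosen by gene symbol, and each was read from the probe set whose signal, averaged over the 14 arrays, was the highest. All 9 were measured, among 17097 genes tested. They had 16 probe sets in all, since Ovol1 and Klf4 had 2 each, Cebpb 3 and Trp63 4.

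In the epidermis, basal keratinocytes divide next to the basement membrane and, once they leave it, stop dividing, build the cornified envelope and form the barrier of the skin. p63 is required for the basal, self-renewing state of stratified epithelia. Grhl and Klf4 factors, with C/EBP factors, switch on barrier and envelope genes in the suprabasal layers. Ovol factors repress genes of the progenitor and mesenchymal states, and Prdm1 is known for a role in late, granular keratinocytes. The bulge is the part of the hair follicle that holds its largely resting stem cells, and the interfollicular epidermis (IFE) is the stratified sheet between follicles. G9a, encoded by Ehmt2, methylates lysine 9 of histone H3 and is linked to gene silencing.

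All mice were 15 weeks old and their skin was in homeostasis. Bulge cells of wild type (WT) mice gave 3 arrays and those of mice with a conditional G9a knockout (cKO) gave 4, while IFE cells gave 3 WT and 4 cKO arrays. No treatment is named for any group. Neither the Cre driver, the time of deletion nor the way cells of both compartments were separated is stated in the labels. The labels do not say whether replicates were separate animals, so a p-value measures the spread between these samples only.

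Signals were log2 values, on which a difference of 1 is a doubling, and the array medians lay between 5.76 and 5.84. The first principal component of all genes held 72.5% of the variance and placed IFE arrays at 23.0 to 40.1 and bulge WT arrays at -48.2 to -42.4. Bulge cKO replicates 2 and 3 stood apart from their group at -6.90 and -11.3, against -36.7 and -37.2 for replicates 1 and 4. Later fits leave these 2 out together, a choice made from these same data for lying nearest to IFE. Leaving them out thus moves the bulge cKO group away from IFE in advance, with 2 arrays left. IFE cKO replicates 2 and 3 also stood somewhat apart, at 23.3 and 23.0 beside 29.8 to 40.1 on the other IFE arrays, and had a mean bulge marker signal of 8.00 and 8.03 beside 7.40 to 7.54. The Ehmt2 probe set 1460692_PM_at read 9.51 to 9.78 on WT and 5.85 to 6.09 on cKO arrays, in the direction of the labels (differences -3.68 in bulge and -3.66 in IFE). The other, 1426888_PM_at, differed by 0.01 and 0.08, and the labels do not say where either lies in the deleted gene. All 10 bulge stem cell markers, Cd34 and Lgr5 among them, were higher in bulge than in IFE cells of both genotypes. Of 6 measured IFE and suprabasal markers, 4 were lower in the bulge of WT mice and 2 in that of cKO mice. Because these are bulk samples, fewer cells of a type and less RNA per cell cannot be told apart.

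The members whose profiles over the arrays lay closest to each other, among those that varied by at least 1 log2 unit, were Grhl1, Grhl3 and Cebpa, and the sequences before their transcription starts are shown. They are the 250 bases upstream of the RefSeq start on GRCm38.p6, on the gene's own strand, and RefSeq promoters were matched for 7 of the 9 members. Capitals mark matches to the motifs searched on both strands, and no match in these windows overlapped another.
Grhl1, chr12:24572037-24572286, plus strand: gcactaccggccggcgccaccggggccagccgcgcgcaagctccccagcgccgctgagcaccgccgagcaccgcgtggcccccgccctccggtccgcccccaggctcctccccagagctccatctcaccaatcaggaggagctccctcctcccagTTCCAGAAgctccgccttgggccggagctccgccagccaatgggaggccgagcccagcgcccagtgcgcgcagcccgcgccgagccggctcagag
Grhl3, chr4:135573633-135573882, minus strand: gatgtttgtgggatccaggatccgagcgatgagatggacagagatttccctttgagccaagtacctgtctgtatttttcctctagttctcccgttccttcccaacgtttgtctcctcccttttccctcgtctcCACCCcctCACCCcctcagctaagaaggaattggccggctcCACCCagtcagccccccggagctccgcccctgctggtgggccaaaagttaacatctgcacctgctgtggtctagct
Cebpa, chr7:35119043-35119292, plus strand: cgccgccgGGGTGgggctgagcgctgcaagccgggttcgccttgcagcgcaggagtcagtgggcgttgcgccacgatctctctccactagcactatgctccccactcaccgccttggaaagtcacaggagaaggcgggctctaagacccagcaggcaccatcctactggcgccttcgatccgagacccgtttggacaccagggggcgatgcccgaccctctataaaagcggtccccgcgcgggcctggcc
The window of Grhl1, the first of 2 starts in the table, held the C/EBP motif TTNCNNAA with its first base 95 bases before the start, a motif present in 36.8% of 32851 promoters of the same length. That of Grhl3 held the CACCC box, which Krüppel-like factors can bind, 3 times, at 117, 109 and 76 bases before the start. That of Cebpa held the same box once, on the other strand at 242 bases, and 52% of all promoters held at least 1. The grainyhead motif AACCNGTT (1.79% of all promoters), the Ovol motif CCGTTA (2.18%) and the AP-1 motif TGANTCA (6.75%) had no match in these 3 windows. Among the other matched members, the promoter of Prdm1 held the AP-1 motif at 48 bases, and those of Ovol2 and Cebpb each held 2 CACCC boxes. That of Klf4 held none of the 5 motifs. The window before the second start of Grhl1 held 2 CACCC boxes, at 81 and 29 bases, both on the other strand, and no match to the other 4 motifs. The CACCC box thus occurred in at least 1 promoter of all 3 genes, as in 52% of all promoters. These matches describe letters, not binding.

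**Figure D1:**
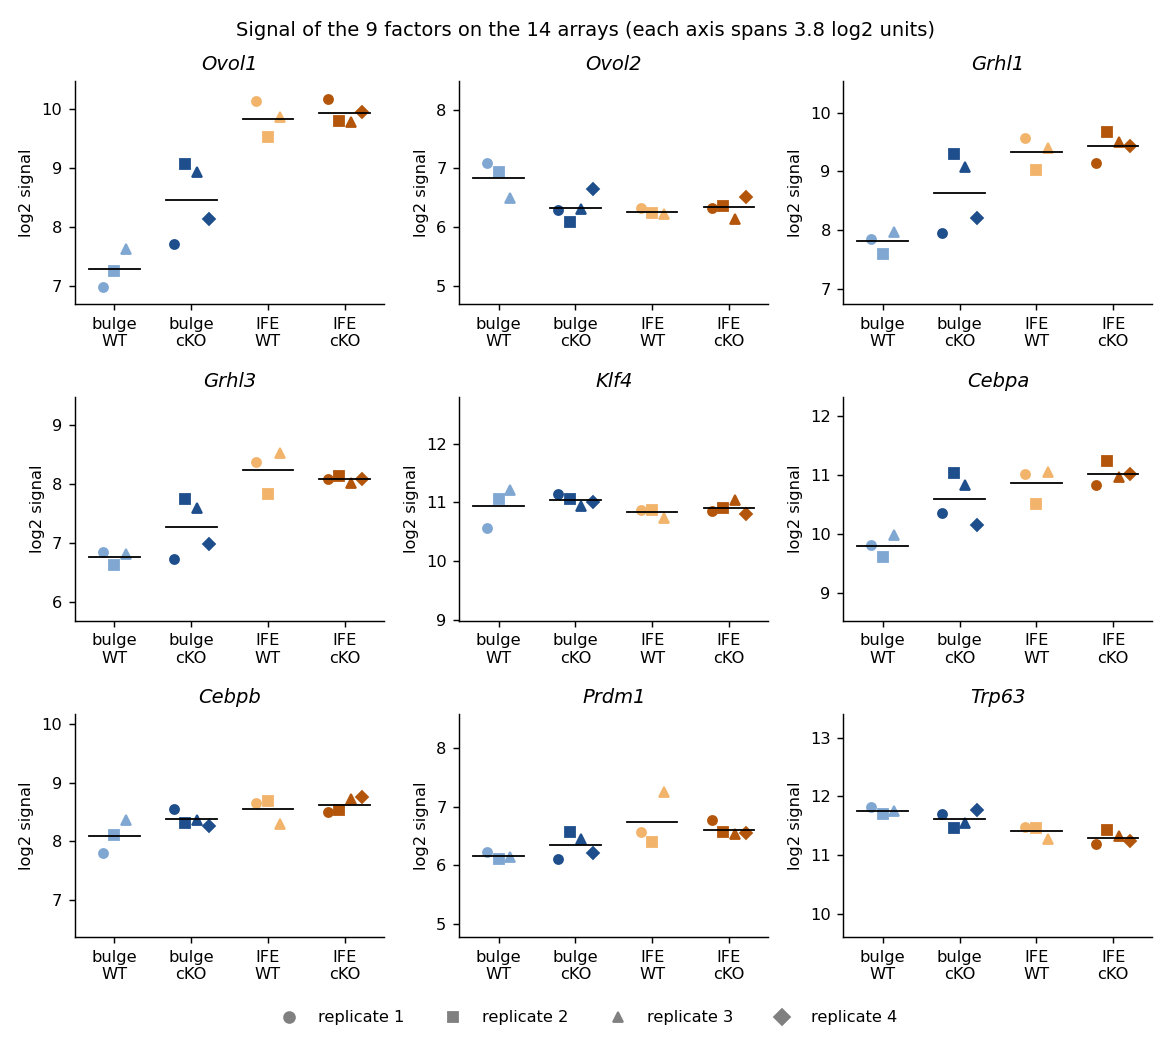
Log2 signal (vertical axis) of each factor on the 14 arrays, by group on the horizontal axis, with 1 symbol per replicate and a line at the group mean. The 3 bulge WT arrays lie below all IFE arrays for Ovol1, Grhl1, Grhl3, Cebpa and Prdm1 and above all IFE arrays for Trp63. Bulge cKO replicates 2 and 3 lie above replicates 1 and 4 for Ovol1, Grhl1, Grhl3, Cebpa and Prdm1.

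In WT skin, 8 of the 9 factors differed between the compartments, against 35.1% of all genes. Ovol1, Grhl1, Grhl3, Cebpa, Cebpb and Prdm1 were lower in bulge than in IFE cells, whereas Trp63 and Ovol2 were higher in the bulge. Genes called lower made up 16.6% of all genes and genes called higher 18.4%. The members' median difference was -0.58, beside -0.01 over all genes. For 7 of the 9, the bulge and IFE arrays of WT mice did not overlap, as for 47.4% of all genes. Calls in this text are limma adjusted p-values under 0.05, with Benjamini-Hochberg adjustment over all genes.

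Ovol1, which restrains the progenitor programme as cells enter differentiation, had the largest compartment difference of the 9. It read 6.98, 7.25 and 7.63 on the bulge WT arrays and 10.14, 9.53 and 9.86 on the IFE WT arrays. Every bulge array thus lay more than 1 unit below every IFE array. The difference was -2.56 (SE 0.31, 95% interval -3.23 to -1.88, limma adjusted p = 7.87e-05). The second Ovol1 probe set gave -3.02 (SE 0.35). Its relative Ovol2, known for keeping epithelial cells from a mesenchymal state, ran the other way. Ovol2 read 7.09, 6.94 and 6.49 on bulge WT arrays and 6.33, 6.24 and 6.22 on IFE WT arrays, with no overlap (difference 0.57, SE 0.16, limma adjusted p = 0.0133). Without bulge WT replicate 1 it was 0.45 and not called (adjusted p = 0.0644).

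Both grainyhead-like factors were lower in the bulge by a like amount. Grhl1, an activator of desmosomal cadherin genes, read 7.86, 7.60 and 7.97 on bulge WT arrays against 9.57, 9.03 and 9.40 on IFE WT arrays (difference -1.52, SE 0.30, limma adjusted p = 0.00194). Grhl3, which drives barrier formation and wound closure, read 6.84, 6.63 and 6.80 against 8.37, 7.83 and 8.52 (difference -1.48, SE 0.24, limma adjusted p = 0.000457). For both genes each bulge array lay about 1 unit or more below each IFE array.

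Of the C/EBP factors, which couple exit from the cell cycle to early differentiation, Cebpa showed the clearer separation. It read 9.81, 9.60 and 9.98 on bulge WT arrays and 11.03, 10.50 and 11.05 on IFE WT arrays (difference -1.06, SE 0.22, limma adjusted p = 0.00255). Cebpb read 7.80, 8.12 and 8.37 against 8.66, 8.69 and 8.30, so bulge replicate 3 lay above IFE replicate 3. Its difference of -0.45 (SE 0.14, limma adjusted p = 0.0264) was not called without bulge WT replicate 1 (-0.30, adjusted p = 0.118), bulge WT replicate 2 (-0.46, adjusted p = 0.0567), IFE WT replicate 1 (-0.40, adjusted p = 0.0877) or IFE WT replicate 2 (-0.38, adjusted p = 0.0925). Of the other Cebpb probe sets, 1427844_PM_a_at gave -0.20 (adjusted p = 0.0121 over all probe sets) and 1427843_PM_at -0.03 (adjusted p = 0.803).

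Prdm1 read 6.23, 6.12 and 6.15 on bulge WT arrays and 6.58, 6.40 and 7.25 on IFE WT arrays. The groups did not overlap, and IFE WT replicate 3 was the highest of all 14 arrays. The difference was -0.58 (SE 0.18, limma adjusted p = 0.0269), and -0.32 without that array (adjusted p = 0.0777). It was also not called without bulge WT replicate 1 (-0.61, adjusted p = 0.0529), 2 (-0.55, adjusted p = 0.0732) or 3 (-0.57, adjusted p = 0.0656). The signals of Prdm1 and Ovol2 lay close to the medians of the arrays, and no test against background was made.

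Trp63 and Klf4 varied least. Trp63 read 11.82, 11.70 and 11.75 on bulge WT arrays and 11.47, 11.46 and 11.28 on IFE WT arrays, and every bulge array was the higher (difference 0.35, SE 0.09, limma adjusted p = 0.00732). Its other probe sets gave 0.44 (1451876_PM_a_at, adjusted p = 0.00462 over all probe sets), 0.55 (1459581_PM_at, adjusted p = 0.0200) and 0.21 (1418158_PM_at, adjusted p = 0.0542). The same direction therefore held in all 4, of which 3 passed the threshold. Of these, 1459581_PM_at read only 4.88 to 5.78 on WT arrays, near or under the array medians. Klf4, a factor of late differentiation and barrier formation, read 10.56, 11.05 and 11.22 in the bulge and 10.87, 10.88 and 10.73 in IFE cells of WT mice, with overlap. Its difference was 0.11 (95% interval -0.17 to 0.40, limma adjusted p = 0.556). Without bulge WT replicate 1, the lowest of the 14, it was 0.31 and called (adjusted p = 0.0194). The second Klf4 probe set gave 0.24 (adjusted p = 0.105 over all probe sets).

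Of 10 Langerhans and myeloid markers, 4 (40%) were called lower in the WT bulge, and of 7 T cell markers 1 (14.3%). Over all genes, 16.6% were called lower there. The mean signal of the Langerhans and myeloid markers was 6.17 to 6.38 on bulge WT and 6.41 to 6.85 on IFE WT arrays. The T cell marker called was Thy1 (-3.41), and the median difference of the 7 was only -0.07. The part of these immune cell markers in the compartment differences of the 9 factors was not tested.

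In cKO skin, 4 of the 9 factors differed between the compartments, against 32.1% of all genes (17.6% called higher in the bulge and 14.6% lower). Ovol1 (-1.47, SE 0.27, limma adjusted p = 0.00184), Grhl3 (-0.82, SE 0.20, limma adjusted p = 0.00987) and Grhl1 (-0.80, SE 0.26, limma adjusted p = 0.0344) were lower in bulge cells. Trp63 was higher there (0.33, SE 0.08, limma adjusted p = 0.00668). Arrays of both compartments did not overlap for Ovol1, Grhl3 and Trp63, as for 33% of all genes. The Grhl1 arrays overlapped, since bulge cKO replicate 2 read 9.29 and IFE cKO replicate 1 read 9.14. Its call was lost without bulge cKO replicate 1 (-0.58, adjusted p = 0.0937) or 4 (-0.66, adjusted p = 0.0874) and without IFE cKO replicate 2 (-0.72, adjusted p = 0.0798), 3 (-0.78, adjusted p = 0.0727) or 4 (-0.80, adjusted p = 0.0703). Without bulge cKO replicates 2 and 3 together it was -1.36 (adjusted p = 0.000351), and Ovol1 (-2.01), Grhl3 (-1.22) and Trp63 (0.44) were then further from 0 as well. Among bulge cKO arrays these 2 lay nearest to IFE for all 4 genes, so larger gaps were fixed in advance.

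The remaining 5 factors were not called between the cKO compartments. Cebpa differed by -0.42 (SE 0.19, limma adjusted p = 0.116), Cebpb by -0.25 (adjusted p = 0.145), Prdm1 by -0.27 (adjusted p = 0.213) and Klf4 by 0.13 (adjusted p = 0.398). The second Klf4 probe set gave 0.25 (limma adjusted p = 0.0560 over all probe sets), and the other Cebpb probe sets gave -0.09 and -0.06. Without bulge cKO replicate 2, Cebpa was called (-0.56, adjusted p = 0.0353), as it was without replicates 2 and 3 together (-0.76, adjusted p = 0.00788). Prdm1 then had -0.45 and Ovol2 0.14, both not called (adjusted p = 0.107 and 0.581). Replicates 2 and 3 had the highest Cebpa and Prdm1 of the bulge cKO group, so larger gaps for both genes were fixed in advance. Ovol2, which was higher in the bulge of WT mice, differed by -0.003 in cKO mice (95% interval -0.30 to 0.29). Whether a compartment difference itself changed with genotype is the same quantity as the difference of the knockout effects given further on, and none of the 9 was called there.

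**Figure D2:**
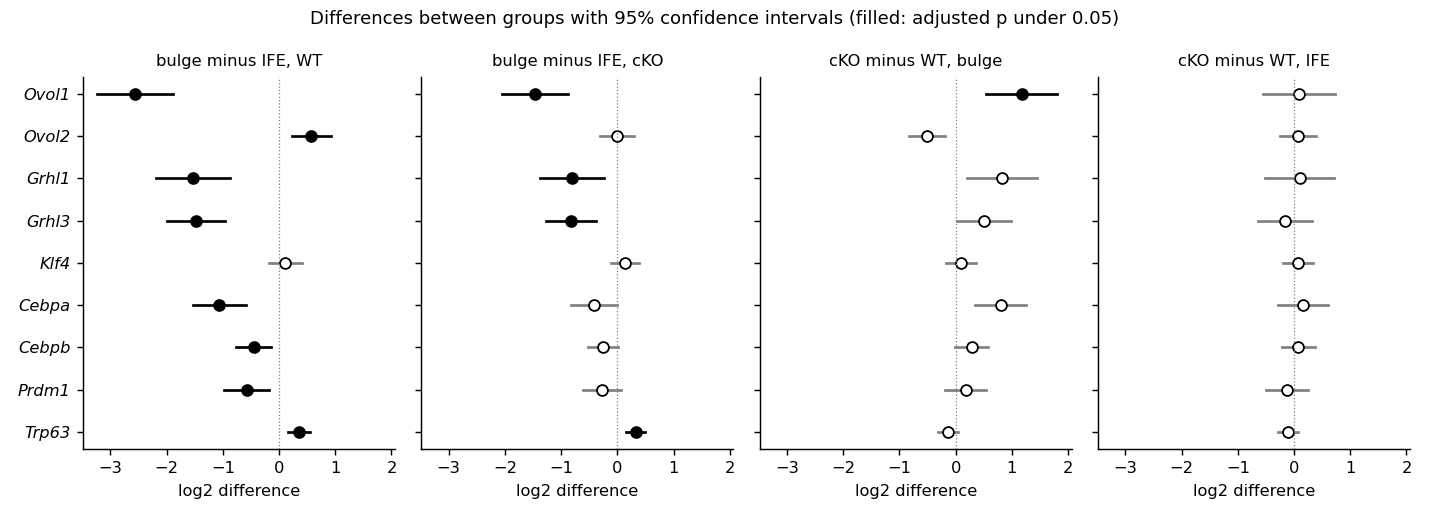
Log2 difference (horizontal axis) with its 95% confidence interval for each factor (vertical axis) in the 4 comparisons; filled points have a limma adjusted p under 0.05. In WT mice 8 points are filled, in cKO mice 4, between genotypes in the bulge only that of Ovol1, and between genotypes in IFE none.

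Between genotypes, Ovol1 was higher in cKO than in WT bulge cells, and it was the only 1 of the 9 called, against 3.84% of all genes (1.98% called higher and 1.85% lower). The members' median difference was 0.28, beside 0.01 over all genes. Besides Ovol1, the cKO and WT bulge arrays did not overlap for Cebpa, against 18.5% of all genes. In both cases the cKO arrays were the higher, as for 10.5% of all genes.

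Ovol1 read 7.72, 9.07, 8.93 and 8.13 on the bulge cKO arrays, against 7.63 for the highest bulge WT array. All 4 lay above the WT arrays and below the lowest IFE WT array, at 9.53. The mean rose from 7.29 ± 0.32 (SD, n = 3) to 8.46 ± 0.65 (SD, n = 4), a difference of 1.18 (SE 0.29, 95% interval 0.54 to 1.81, limma adjusted p = 0.0462). The second probe set, 1419052_PM_at, read 7.40, 9.07, 8.96 and 8.35 in cKO and 6.55, 6.70 and 7.08 in WT bulge cells, a difference of 1.67 (SE 0.33, adjusted p = 0.0216 over all probe sets). The call on the first probe set was near the threshold. Leaving out bulge cKO replicate 1 or 4 or bulge WT replicate 3 kept it. Leaving out any other of the 14 arrays lost it, with differences of 0.97 to 1.18 and adjusted p-values of 0.0542 to 0.181. Those were bulge cKO replicates 2 and 3, bulge WT replicates 1 and 2 and every IFE array, which enter the shared spread. Without bulge cKO replicates 2 and 3 together the difference was 0.64 (adjusted p = 0.340). These 2 had the highest Ovol1 of their group, so a smaller difference was fixed in advance.

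Cebpa read 10.36, 11.04, 10.84 and 10.16 on bulge cKO arrays, all above the WT maximum of 9.98. Its difference was 0.80 (SE 0.21, 95% interval 0.35 to 1.25, limma adjusted p = 0.0516), which misses the threshold. It was called without bulge cKO replicate 1 (0.88, adjusted p = 0.0418) or replicate 4 (0.95, adjusted p = 0.0137), and was 0.46 without replicates 2 and 3 (adjusted p = 0.407). Grhl1 read 7.95, 9.29, 9.07 and 8.20, and its replicate 1 lay within the WT range of 7.60 to 7.97. The Grhl1 difference was 0.82 (SE 0.28, 95% interval 0.21 to 1.44, limma adjusted p = 0.104). It was called without bulge cKO replicate 1 (1.05, adjusted p = 0.0364) or 4 (0.97, adjusted p = 0.0481), and was 0.27 without replicates 2 and 3 (adjusted p = 0.696). Grhl3 read 6.73, 7.74, 7.59 and 6.98, with replicate 1 inside the WT range, and differed by 0.50 (SE 0.22, limma adjusted p = 0.178), or 0.10 without replicates 2 and 3 (adjusted p = 0.908). Replicates 2 and 3 were the highest of their group for Cebpa, Grhl1 and Grhl3. Smaller differences without them, and larger ones without replicate 1 or 4, were thus fixed in advance.

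Of the probe sets that stand for the members, that of Ovol2 had the most negative bulge difference, which was not called. It read 6.30, 6.08, 6.30 and 6.65 on bulge cKO arrays against 6.49 to 7.09 in WT, so replicate 4 lay inside the WT range. The difference of -0.50 (SE 0.15, 95% interval -0.83 to -0.18, limma adjusted p = 0.0715) was called without bulge cKO replicate 4 (-0.61, adjusted p = 0.0203) or bulge WT replicate 3 (-0.68, adjusted p = 0.0254). The other 4 members differed little. Cebpb read 8.26 to 8.56 in cKO (0.28, limma adjusted p = 0.206), Prdm1 6.11 to 6.57 (0.17, adjusted p = 0.532), Klf4 10.94 to 11.15 (0.09, 95% interval -0.17 to 0.36) and Trp63 11.46 to 11.77 (-0.14, 95% interval -0.31 to 0.04). For Cebpb the other probe sets gave 0.02 and -0.04, and for Klf4 the second gave 0.07. The other Trp63 probe sets gave -0.25 (1451876_PM_a_at, unadjusted p = 0.0187, adjusted p = 0.127 over all probe sets), -0.30 (1459581_PM_at, adjusted p = 0.245) and -0.12 (1418158_PM_at, adjusted p = 0.346). All 4 were thus below 0 and none was called, with 1459581_PM_at again near or under the array medians.

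The 4 bulge cKO arrays were spread unevenly between the WT levels of both compartments. On a scale where 0% is the bulge WT mean and 100% the IFE WT mean, Ovol1 stood at 16.9%, 69.8%, 64.3% and 33% on replicates 1 to 4. Grhl1 stood at 9.6%, 97.5%, 82.9% and 25.8%, and Grhl3 at -2.0%, 66.6%, 56.0% and 15.2%. Replicates 2 and 3 were thus nearer to IFE than replicates 1 and 4 for these 3 genes. The same order held for Cebpa (52.6%, 117%, 98.0% and 33.6%), Prdm1 (-9.4%, 70.6%, 50.8% and 9.1%) and Trp63 (14%, 84.3%, 58.7% and -3.0%). It did not hold for Cebpb, where replicate 1 was furthest at 102%, or for Ovol2, where replicate 1 (94.1%) lay with replicates 2 and 3 (132% and 93.0%). Klf4 has no such scale, as its WT compartments were not told apart.

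**Figure D3:**
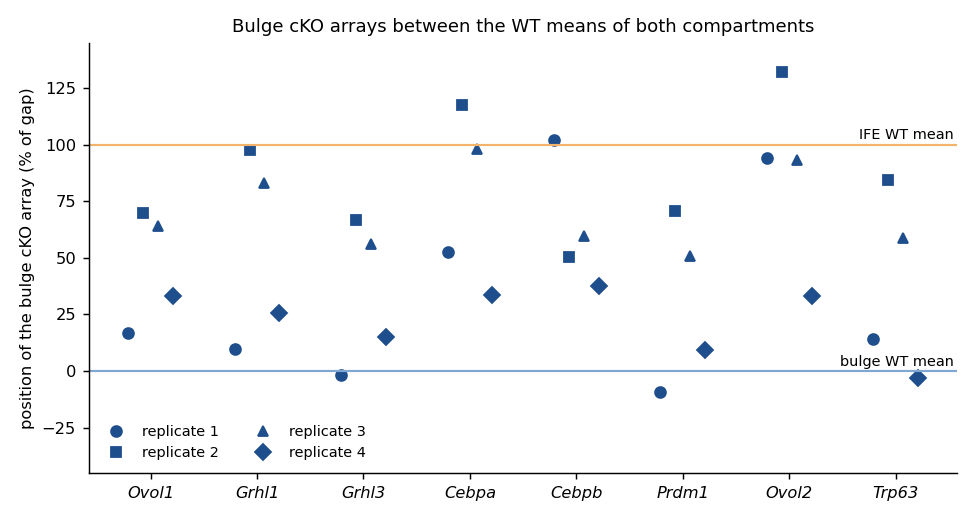
Position of each bulge cKO array between the bulge WT mean (0%) and the IFE WT mean (100%), in percent of the gap (vertical axis), for the 8 factors called between the WT compartments (horizontal axis). Replicates 2 and 3 lie above replicates 1 and 4 for Ovol1, Grhl1, Grhl3, Cebpa, Prdm1 and Trp63.

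Markers of other cells moved on the same arrays. The mean signal of the 6 IFE and suprabasal markers, of which all but Il33 are also on the suprabasal gene list used further on, was 7.26, 9.38, 9.09 and 8.58 on bulge cKO replicates 1 to 4 and 6.79 to 7.44 on bulge WT arrays. That of the 10 bulge stem cell markers was 10.43, 9.72, 9.86 and 10.60, against 10.66 to 10.78. Replicates 2 and 3 thus had the highest suprabasal and the lowest bulge marker signals of the group, although no gene of either list was called between genotypes (0 of 6 and 0 of 10 in limma, with an unadjusted p under 0.05 for 6 and 5, and median differences of 1.43 and -0.55). Over all 17097 genes, 4390 had such a p between genotypes in the bulge. The 10 Langerhans and myeloid markers averaged 6.65, 7.26, 7.06 and 6.82 against 6.17 to 6.38 in WT, with 4 of 10 called higher: the antigen presentation genes H2-Ab1, H2-Eb1, H2-Aa and Cd74. The 7 T cell markers averaged 5.42, 6.26, 6.35 and 5.99 against 5.20 to 5.45, with 0 of 7 called by limma (5 at an unadjusted p under 0.05), and 2 of the 7 lay under the array median on every bulge cKO array against 6 of 7 in bulge WT. Fibroblast markers averaged 4.68, 5.40, 5.04 and 4.76 on bulge cKO replicates 1 to 4 and 4.59 to 4.76 on bulge WT arrays. Replicates 2 and 3 were again the highest of the group. Of the fibroblast markers limma called 0 of 6, and of the melanocyte markers 0 of 5, each with 1 at an unadjusted p under 0.05. For upper follicle and sebaceous, endothelial and anagen hair markers 1 of 8, 1 of 4 and 1 of 5 were called higher. Of all genes, 1.98% were called higher in the cKO bulge. The part of these cell markers in the differences of Ovol1, Cebpa and the Grhl genes, and of the gene lists that follow, was not tested.

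In IFE cells, 0 of the 9 factors were called between cKO and WT by limma, and 0 of 9 had an unadjusted p under 0.05, where 0.497% of all genes were called and 1876 had such a p. The cKO and WT arrays overlapped for all 9, whereas 11% of all genes did not overlap. Ovol1 read 10.18, 9.80, 9.79 and 9.95 in cKO against 10.14, 9.53 and 9.86 in WT, a difference of 0.09 (95% interval -0.55 to 0.72). Grhl1 differed by 0.10 (95% interval -0.52 to 0.72), Grhl3 by -0.16 (-0.64 to 0.32) and Cebpa by 0.16 (-0.29 to 0.60). These intervals still allow changes of more than 0.5 in either direction for Ovol1 and Grhl1. Tighter limits held for Ovol2 (0.07, 95% interval -0.25 to 0.39), Cebpb (0.08, -0.21 to 0.37), Klf4 (0.07, -0.19 to 0.34) and Trp63 (-0.11, -0.29 to 0.07). Prdm1 differed by -0.13, with an interval of -0.50 to 0.24.

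The difference between the knockout effects of both compartments, the test of whether bulge and IFE responded differently, called 0 of the 9 factors, against 0.105% of all genes. Ovol1 had 1.09 (SE 0.41, 95% interval 0.19 to 1.98, limma adjusted p = 0.286), Ovol2 -0.58 (SE 0.21, adjusted p = 0.273) and Cebpa 0.64 (SE 0.29, adjusted p = 0.349). These were the only 3 of the 9 with an unadjusted p under 0.05, which 2404 genes had. Grhl1 had 0.72 (adjusted p = 0.433) and Grhl3 0.67 (adjusted p = 0.361). The higher Ovol1 in the cKO bulge is therefore not shown to be particular to the bulge.

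Taking the 4 group means in order, Ovol1 rose from bulge WT (7.29) over bulge cKO (8.46) to IFE WT (9.84) and IFE cKO (9.93), and the last pair overlapped. Cebpa had the same order at 9.80, 10.60, 10.86 and 11.01, with overlap between bulge cKO and IFE WT and between the IFE groups. Grhl1 ran from 7.81 over 8.63 to 9.33 and 9.43, overlapping at each neighbouring pair. Grhl3 ran from 6.76 in bulge WT over 7.26 in bulge cKO to 8.08 in IFE cKO and 8.24 in IFE WT, with only bulge cKO and IFE cKO apart. Prdm1 ran in the order of Grhl3, at 6.17, 6.34, 6.61 and 6.74, overlapping at each neighbouring pair. Trp63 ran the opposite way, from 11.30 in IFE cKO and 11.40 in IFE WT to 11.62 in bulge cKO and 11.76 in bulge WT, again with overlap between neighbours. Ovol2 was at 6.26 to 6.34 in 3 groups and at 6.84 in bulge WT, whose arrays overlapped those of bulge cKO and IFE cKO. Cebpb ran from 8.09 in bulge WT over 8.38 in bulge cKO to 8.55 in IFE WT and 8.63 in IFE cKO, and Klf4 from 10.83 in IFE WT over 10.90 in IFE cKO and 10.94 in bulge WT to 11.04 in bulge cKO. Neighbouring groups overlapped for both.

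Of the 5 gene lists, the suprabasal and cornified envelope genes had the largest median shift in the cKO bulge, although few passed the test. Whether the 9 factors regulate the list genes here was not tested. Of 23 measured, 3 (13.0%) were called higher and 0 lower, beside 3.84% of all genes called and 1.98% called higher, with a median difference of 1.10. They were Abca12, a lipid transporter of the lamellar granules (2.41, SE 0.31, limma adjusted p = 0.00200), Casp14, a caspase of cornification (2.32, SE 0.54, limma adjusted p = 0.0373), and Sprr1a, an envelope precursor (1.53, SE 0.35, limma adjusted p = 0.0373). Involucrin, Ivl, had 1.01 (limma adjusted p = 0.0616). Abca12 read 6.01, 7.57, 7.35 and 6.62 on bulge cKO arrays against 4.24 to 4.92 in WT, and was the only 1 of the 3 still called without replicates 2 and 3 (1.84, adjusted p = 0.00722). Casp14 then had 1.30 (adjusted p = 0.237) and Sprr1a 0.92 (adjusted p = 0.296). Replicates 2 and 3 had the highest signals of their group for all 3 genes, so smaller differences were fixed in advance. The list's mean signal was 7.61, 9.12, 8.88 and 8.48 on bulge cKO replicates 1 to 4 and 7.11 to 7.62 on bulge WT arrays. Replicate 1 thus lay within the WT range.

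Of 14 genes of the basal state or dependent on p63, 3 (21.4%, beside 1.85% of all genes) were called lower in the cKO bulge, 0 higher and 11 neither way, with a median of -0.30. P-cadherin, Cdh3 (-0.50, SE 0.11, limma adjusted p = 0.0352), the laminin chain Lama3 (-0.40, SE 0.10, adjusted p = 0.0414) and the hemidesmosomal integrin Itgb4 (-0.36, SE 0.09, adjusted p = 0.0462) were lower. Without replicates 2 and 3 none of the 3 was called, at -0.39, -0.23 and -0.30 (adjusted p = 0.265, 0.313 and 0.345). Cdh3 and Lama3 were lowest of the group on these arrays, so smaller differences for both were fixed in advance. Trp63 itself was not called, as given above. All 4 bulge cKO arrays had a list mean below that of every bulge WT array, at 10.47 to 10.64 against 10.71 to 10.85. The same held in IFE cells, at 10.53 to 10.67 in cKO against 10.75 to 10.77 in WT.

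Of 9 epithelial genes known as targets of Grhl or Ovol factors, limma called 0 between genotypes in the bulge, with 4 at an unadjusted p under 0.05. Over all 17097 genes, 4390 had such a p. Rab25, a small GTPase of epithelial transport, had 0.85 (limma adjusted p = 0.0605) and the desmosomal cadherin Dsg1a 2.14 (adjusted p = 0.0741), and the list's median was 0.39. Without replicates 2 and 3 they had 0.42 (adjusted p = 0.432) and 1.01 (adjusted p = 0.551). Both genes were highest of the group on these arrays, so smaller differences were fixed in advance. Among 8 mesenchymal genes that Ovol and Grhl factors hold down, Twist1 was called, at a difference of only 0.15 (adjusted p = 0.0454). It was not called without replicates 2 and 3, its highest of the group (0.14, adjusted p = 0.311). Twist1 read 4.58 to 4.66 in WT and 4.75 to 4.78 in cKO, and 6 of the 8 genes lay under the median of every bulge array. Snai2, a repressor of keratinocyte differentiation, had -0.88 (adjusted p = 0.0502), reading 7.30, 6.67, 6.98 and 7.58 in cKO against 7.82 to 8.30 in WT bulge cells. Without replicates 2 and 3, its lowest of the group, it had -0.58 (adjusted p = 0.407), again a smaller difference fixed in advance. In IFE cells it had a like difference of -0.98 (limma adjusted p = 0.0963).

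Of 32 other epidermal transcription factors, 3 (9.38%, beside 1.98% of all genes) were called higher and 0 lower in the cKO bulge, with a median of 0.14. They were Klf5, expressed in the basal layer (1.09, SE 0.19, limma adjusted p = 0.0104), the AP-2 factor Tfap2c (1.18, SE 0.27, adjusted p = 0.0375) and the aryl hydrocarbon receptor Ahr (1.25, SE 0.31, adjusted p = 0.0462). Klf5 read 8.40, 9.01, 8.86 and 8.54 in cKO and 7.29 to 7.81 in WT bulge cells, well below the 9.83 to 10.23 of IFE WT arrays. Without replicates 2 and 3 none of the 3 was called (Klf5 0.86, adjusted p = 0.127, Tfap2c 0.71, adjusted p = 0.299, and Ahr 0.70, adjusted p = 0.361). All 3 were highest of the group on these arrays, so smaller differences were fixed in advance. In IFE cells limma called 0 genes in each of the 5 lists between genotypes. An unadjusted p under 0.05 was found there for 5 of 23 suprabasal genes, 6 of 14 basal genes, 2 of 32 other factors, 1 of 9 targets and 1 of 8 mesenchymal genes. The difference of effects called 0 in each list as well, with 5, 0, 6, 1 and 0 genes of these lists at such a p. The IFE medians were 0.43 for the suprabasal genes, 0.14 for the Grhl and Ovol targets, 0.07 for the other factors, 0.05 for the mesenchymal genes and -0.17 for the basal genes. The suprabasal mean was 9.11 and 8.98 on IFE cKO replicates 2 and 3, the arrays with more bulge and T cell marker signal. It was 8.50 and 8.66 on replicates 1 and 4, within the 8.06 to 8.69 of IFE WT arrays.

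**Figure D4:**
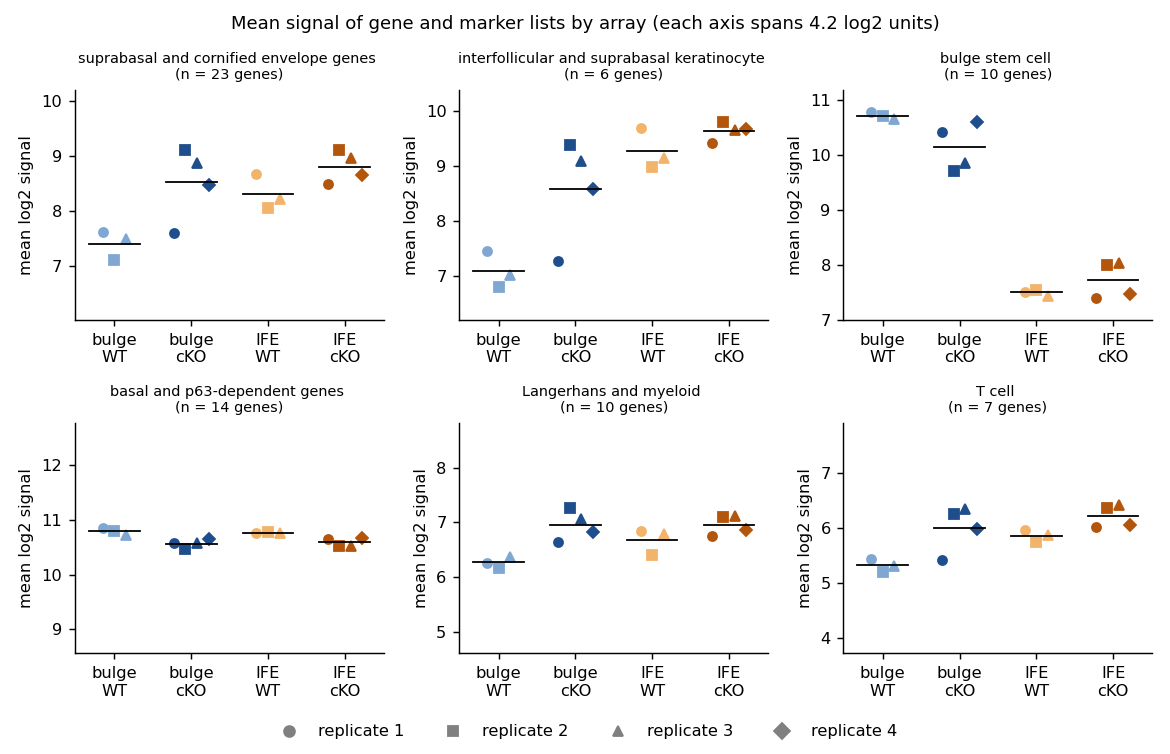
Mean log2 signal (vertical axis) of 6 lists of genes or markers on each array, by group, with 1 symbol per replicate and a line at the group mean. Bulge cKO replicates 2 and 3 have the highest suprabasal and the lowest bulge stem cell signals of their group, and IFE cKO replicates 2 and 3 have the highest bulge stem cell and T cell signals among IFE arrays.

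Between the compartments of WT mice the same lists set the scale for the members, beside 35.1% of all genes called (18.4% higher and 16.6% lower). Of the 32 other factors, 9 were called higher and 16 lower in the bulge, including Sox9 (2.40) and Tfap2b (2.82) on the higher side and Klf5 (-2.38) and Tfap2c (-2.73) on the lower. Of the 23 suprabasal genes, 10 were lower and 2 higher, with Abca12 at -3.15 and Sprr1a at -2.39. The 2 higher ones were Tgm5 (4.29) and Calml3 (4.06), a transglutaminase and a calmodulin-like protein. Both thus ran against the Grhl and Ovol1 pattern. Of the 9 Grhl or Ovol targets, 6 were lower and 1 higher, among them E-cadherin, Cdh1 (-1.10), Dsg1a (-3.95) and the splicing regulator Esrp1 (-0.50), with Tgm5 again the exception. The basal list was mixed, with 4 of 14 higher and 2 lower. It held Dst (0.57), Lamb3 (0.39) and Itgb4 (0.35) on the higher side and Itga6 (-0.87) on the lower. Among the 8 mesenchymal genes, limma called 0, and 0 had an unadjusted p under 0.05. In cKO mice the counts were 7 higher and 15 lower of 32, 3 and 4 of 23, 1 and 5 of 9, 5 and 3 of 14 and, for the mesenchymal genes, 0 of 8 in limma (1 at an unadjusted p under 0.05), beside 32.1% of all genes. Without bulge cKO replicates 2 and 3 the suprabasal count was 12 of 23 in place of 7, and that of the mesenchymal genes 1 of 8. These arrays were left out for lying nearest to IFE, as given above.

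The genes whose centred profiles lay nearest to a member, by the root mean square difference of log2 signals over the 14 arrays, give each a neighbourhood. For Grhl3 they were Lypd3 (0.08), Abhd6 (0.11) and the nuclear receptor Rora (0.13). For Grhl1 they were Sphk1 (0.16), Rab25 (0.16), which is also on the list of Grhl and Ovol targets, and Smagp (0.17). Those of Ovol1 were Ndufa4l2 (0.17), Mall (0.19) and Hcar2 (0.20). Cebpa was nearest to Sh3gl2, Eppk1 and Dab1 (0.16 each), and Prdm1 to Slc6a14, Sipa1l2 and Bmp2k (0.11 each). Ovol2 was nearest to Ptprg, Tril and Bicral (0.13, 0.13 and 0.14). Klf4, Cebpb and Trp63 varied by less than 1 log2 unit over the arrays (0.66, 0.96 and 0.64) and were given no neighbours. Between members, the distance was 0.21 for Grhl1 and Grhl3, 0.26 for Grhl1 and Cebpa, 0.29 for Grhl3 and Cebpa, and 0.48 for Ovol1 and Grhl1. Profiles were centred but not scaled, so these distances mix shape with the size of variation (range 3.20 for Ovol1 and 2.07 for Grhl1). They cover 14 arrays that mostly separate by compartment.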

How the data were processed

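Total RNA was isolated with TRizol, and biotin-labelled amplified cDNA was put on Affymetrix arrays, per the labels' protocols. The authors deposited log2 signals of 45141 probe sets on 14 arrays, made with RMA per the submitters' processing notes. RMA corrects background and makes the distributions of the arrays alike, so a shift shared by most genes would not be seen. The sources used here give neither its version nor a genome build.

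Probe sets were named by Entrez identifier through the RefSeq table of GRCm38.p6: 28898 had a single symbol, 551 several and 15692 none, and the last 2 kinds were left out. The probe set with the highest mean stood for each of 17097 genes. A mean per group was fitted to all 14 arrays in R 4.3.3 with lmFit and plain eBayes of limma 3.58.1, leaving 10 residual degrees of freedom, with two-sided tests and Benjamini-Hochberg adjustment over all genes. Intervals are 95% confidence intervals of that fit. Precision is limited by how many arrays there are.

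The members, 5 gene lists and 9 marker lists (147 of 158 entries measured) were chosen with earlier results of these data known. Of each list described, at most 4 genes with the smallest adjusted p were named in a comparison. For members with a range of at least 1, the 3 nearest profiles were named. The fit was tested on simulated data. Alternatives covered scaling, choice of probe sets, dim probe sets, the spread estimate, the arrays fitted, a replicate block, the threshold and leaving out arrays. Whether replicate numbers pair the arrays is not known, and the fit used no pairing. Of 19 same-number pairs 6 correlated above 0.1, but these pairs include WT with cKO arrays. Figures were drawn with matplotlib 3.10.9.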

Additional observations from a re-analysis of the deposited data

How the results depend on the processing

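Of 1116 member differences over 25 alternatives, 1067 stayed on their side of the threshold, 34 lost a call and 15 gained one. No called difference changed sign (0 reversed), but 26 of the 1067, none of them called, did. Ovol1, Grhl1, Grhl3, Cebpa and Trp63 kept their WT compartment calls under every alternative, and Ovol1, Grhl3 and Trp63 theirs in cKO. In the bulge between genotypes, 1 member and 656 genes were called. Members called were 0 with median centring, 0 with only the groups compared, 0 without bulge cKO arrays 2 and 3 together, 2 without dim probe sets, 2 with the mean of probe sets, 2 with an intensity trend and robust fit, 3 at an adjusted p under 0.1, and 0 to 4 without 1 array. Genes called were 408 without dim probe sets, 1646 with every probe set by itself, 72 with only the groups compared, 2015 at an adjusted p under 0.1, 116 without bulge cKO arrays 2 and 3 together, and 116 to 2553 without 1 array. In IFE, 85 genes were called, against 52, 173, 48 and 176 under the first 4 of these settings and 38 to 107 without 1 array. The difference of effects called 18 genes, against 5 without dim probe sets, 65 with every probe set, 49 at the wider threshold, 3 without arrays 2 and 3 together and 3 to 240 without 1 array. Between compartments, every probe set by itself gave 15771 calls in WT (5998 otherwise) and 14583 in cKO (5496 otherwise). That setting tested 45141 probe sets in place of 17097 genes. Its counts, also those in the bulge, in IFE and for the difference of effects, thus cannot be set directly against counts of genes. Whether the replicate numbers pair the arrays was not settled (same-number correlations -0.616 to 0.251, and 0 of 14 arrays correlated best with their own number). These pairs include WT with cKO arrays, which cannot share a mouse. Bulge and IFE arrays of the same genotype and number gave 0.251, 0.0359 and 0.144 in WT. In cKO they gave -0.0285, 0.110, -0.570 and 0.151. With the replicate block 412 genes were called in the bulge, 33 in IFE and 2 for the difference of effects. The block lost the bulge call of Ovol1 (1.23, limma adjusted p = 0.0690) and the WT compartment call of Cebpb (adjusted p = 0.0623), and gained a bulge call of Ovol2 (-0.59, adjusted p = 0.0405). Median centring moved the higher share of calls from 51.7% to 41.5% in the bulge, from 52.6% to 42.5% between WT compartments and from 54.7% to 39.6% between cKO compartments. With only the groups compared, Ovol1 in the bulge (adjusted p = 0.158), Cebpb and Prdm1 in WT (0.0964 and 0.0922) and Grhl1 in cKO (0.0795) lost their calls, and cyclic loess lost Grhl1 in cKO (0.0774). Among 615 list counts, 88 moved by over 1.5 times. Beyond the number of arrays, genes or probe sets tested, the cause was not tested. Background correction and a block for slide or scan were not run, as they need more than the deposited signals. Outliers were looked for in 64 sets of values from groups of 4 arrays, and 0 were found. The test looks for 1 array apart from the rest, so it could not flag 2 arrays standing apart together. The WT groups of 3 arrays were not tested.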
